A study of Mus musculus with 9 samples.

Results

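Aortae of mice that received Ang II together with MK-626 were compared with aortae of untreated mice, to show which RNAs stayed different from the untreated vessel while the drug was given. The arrays were chosen by their titles, 3 labelled for Ang II + MK-626 and 3 for Vehicle, which is 6 of the 9 arrays of the series. The other 3 arrays, from mice with Ang II alone, were used to place the differences and also entered the common estimate of the error in the main fit. All mice were male C57BL/6J of 8 to 10 weeks, and all carried an osmotic pump for 2 weeks. The Vehicle group had a pump with PBS and no active drug. The Ang II group had a pump that delivered Ang II at 1 mg/kg/day and no active drug. In the third group, Ang II + MK-626, the mice had the Ang II pump and were given MK-626 by mouth at 3 mg/kg/day. MK-626 was not given without Ang II, so an effect of MK-626 on its own cannot be told apart from its effect on top of Ang II. The labels of the Vehicle and Ang II arrays describe the pumps in the same way but name berberine as the drug, whereas the study's methods treat the 3 groups as a single experiment with MK-626. Whether the Vehicle arrays were made together with the Ang II + MK-626 arrays is not given in the sources used here, so in this comparison a batch of arrays and a group cannot be told apart. RNA came from fresh aortae, and no separation of the endothelium, the muscle layer and the adventitia is described for the array samples. The study's methods describe removal of adhering tissue for the vessel rings and the cell cultures. They do not state it for the array samples.

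Angiotensin II is the peptide hormone of the renin-angiotensin system. It constricts vessels through the AT1 receptor on smooth muscle, raises blood pressure, and in the aorta is known for thickening of the wall, inflammation and a loss of the relaxation that the endothelium gives through nitric oxide. DPP-4 is a peptidase that inactivates the gut hormone GLP-1, and MK-626 inhibits it, so that more active GLP-1 stays in plasma.

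RNA was labelled with random primers, hybridized to 1-colour Agilent arrays for lncRNAs and mRNAs, and given as quantile-normalized log2 values, on which 1 unit is a 2-fold difference in signal. The test by limma covered 60834 probes, with the 68 control probes set aside. In the scanner files of the Ang II + MK-626 arrays, 39267 to 40573 probes were well above background, 0 were saturated, and a value of 3.9 separated most measured probes from most background probes. This boundary was applied to the other arrays too, whose scanner files were not analysed here. The lowest value of an array was between 2.32 and 2.37, and 7525 probes lay at that value on all 9 arrays. The deposited table names probes and not transcripts. A gene name was available for 23 probes, so the smooth muscle, endothelial and fibroblast markers that define aorta could not be checked, and a smaller number of cells of a type cannot be told apart from less RNA per cell.

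A probe was counted as called when limma gave it an unadjusted p under 0.05 and its group means differed more than 2-fold. With Ang II + MK-626, 1290 probes were called higher than in Vehicle (2.12% of those tested) and 1162 were called lower (1.91%), together 4.03%. After Benjamini-Hochberg adjustment over all probes, 851 of the higher and 943 of the lower probes remained called. The arrays of the groups did not overlap at 1223 of the 1290 higher probes and at 1145 of the 1162 lower probes, against 34.1% of all probes tested. Most called differences were modest. The median was 1.33 on the log2 scale for the higher probes and -1.29 for the lower ones, and 208 and 188 probes, respectively, differed by more than 2. With values below the boundary set to it, which turns dim probes into lower bounds, the medians were 1.15 and -1.13, and 143 and 136 probes differed by more than 2. The share of probes called depended on the level. It was 2.67% of the probes with a mean over the 9 arrays below 3.9, 5.95% between 3.9 and 6, 4.82% between 6 and 9, 3.85% between 9 and 12, and 1.89% at or above 12. In this brightest class 56 probes were called higher and 14 lower.

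**Figure D1:**
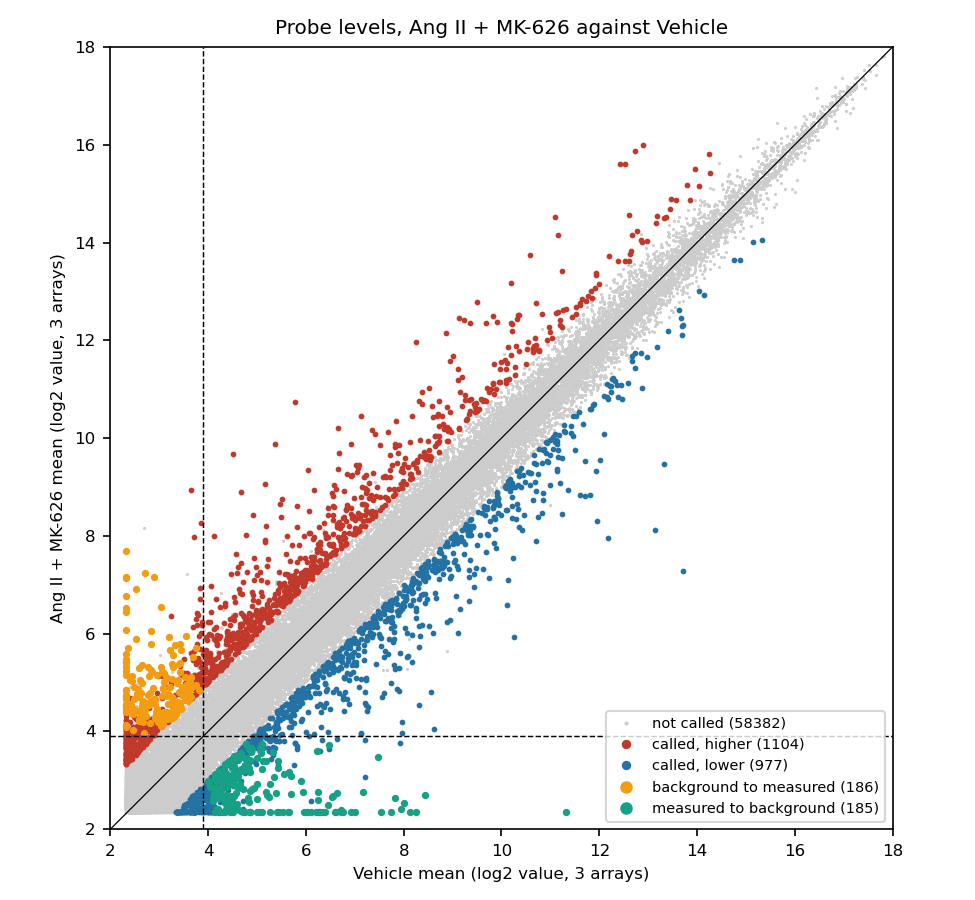
Mean log2 value of each probe in Ang II + MK-626 (vertical axis) against Vehicle (horizontal axis), 3 arrays each. Coloured points are called probes, dashed lines mark the background boundary of 3.9, and the diagonal is equality. Called probes occur at all levels, with 186 of the higher ones left of the vertical line and 185 of the lower ones under the horizontal line counted separately.

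Among the called probes, the median distance from Vehicle was similar in the 3 treated arrays for the lower probes. For the higher probes it rose from replicate 1 to replicate 3. Both sets were called on these same treated arrays, so the medians describe the sets and test nothing. Some of the lower probes ended at the floor, which holds their treated values together. For the 1162 lower probes, the median distance from the Vehicle mean was -1.33, -1.34 and -1.36 in replicates 1, 2 and 3 of Ang II + MK-626. For the 1290 higher probes it was 1.23, 1.35 and 1.54. Replicates 1 and 2 shared a scan and replicate 3 had another one, and the part of the scan in this difference was not tested. In the arrays with Ang II alone, the same higher probes had medians from 1.45 to 1.57 and the same lower probes had medians of -1.11, -1.14 and -1.20. These values share the Vehicle arrays with the values that chose the probes, so they place the probes and do not test them. Without Ang II + MK-626 replicate 1 the number of higher probes was 1649, and without replicate 3 it was 1141. The count after adjustment, 1794 in all, was 1058 without Vehicle replicate 1, 1156 without Vehicle replicate 3 and 1153 without Ang II + MK-626 replicate 2.

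The largest fall left nothing measurable. Probe ASMM10P031796 had 11.35, 11.09 and 11.52 in the Vehicle arrays and 2.33, 2.34 and 2.37 with Ang II + MK-626, the lowest value that each of these arrays holds. It was not well above background on any treated array and was at least 171-fold lower than in Vehicle (limma, adjusted p = 2.06e-07 on the values as given and 3.29e-06 with values below the boundary set to it). The Ang II arrays were at their floor as well, with 2.35, 2.33 and 2.32. Probe ASMM10P030073 was the next, and it remained measured. Its values were 13.76, 13.55 and 13.82 in Vehicle and 7.21, 7.34 and 7.28 with Ang II + MK-626, a difference of -6.44 (SE 0.94, limma adjusted p = 0.00772), whereas the Ang II arrays were spread from 7.88 to 11.95. Both probes had groups without overlap between Vehicle and Ang II + MK-626.

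At the other end, the largest rise between values that were measured in both groups was that of probe ASMM10P040312. It had 4.38, 4.40 and 4.73 in Vehicle, 10.23, 9.64 and 9.16 with Ang II + MK-626 and 9.32, 8.66 and 9.34 with Ang II. The difference from Vehicle was 5.18 with MK-626 (SE 0.30, limma adjusted p = 0.000398), and the treated arrays with and without MK-626 overlapped. A second probe had 3.45, 3.90 and 3.61 in Vehicle, at or under the boundary, 9.26, 8.85 and 8.71 with Ang II + MK-626 and 9.30, 9.37 and 9.07 with Ang II. With the Vehicle values set to the boundary it was at least 32.9-fold higher than in Vehicle (limma, adjusted p = 8.7e-05 on the values as given). Probe ASMM10P041204 was at the floor of 2.33 in all 3 Vehicle arrays and had 7.29, 7.80 and 7.96 with Ang II + MK-626. It was higher than in Vehicle by at least 13.8-fold (limma, adjusted p = 0.0107 on the values as given and 0.0141 with values below the boundary set to it). With Ang II alone the arrays had 5.33, 6.35 and 2.56, so that 1 of them was at background.

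Among the 8 largest rises, a pair of probes was still far above Vehicle with MK-626 although it lay well below the level with Ang II alone. The first of this pair had 5.64, 6.46 and 5.25 in Vehicle, 13.71, 13.52 and 14.16 with Ang II and 11.04, 10.83 and 10.33 with Ang II + MK-626. The second had 5.37 ± 0.33 (SD, n = 3) in Vehicle, 12.86, 12.68 and 13.18 with Ang II and 9.91, 9.85 and 9.88 with Ang II + MK-626. The remaining differences from Vehicle were 4.95 and 4.52 (limma, adjusted p = 0.000753 and 0.00011), with no overlap between any of the 3 groups. Of the 8 largest falls, 7 ended at background with Ang II + MK-626. In 3 of these 7, Ang II replicate 1 was between 7.25 and 7.57 while Ang II replicates 2 and 3 were between 2.32 and 3.01.

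**Figure D2:**
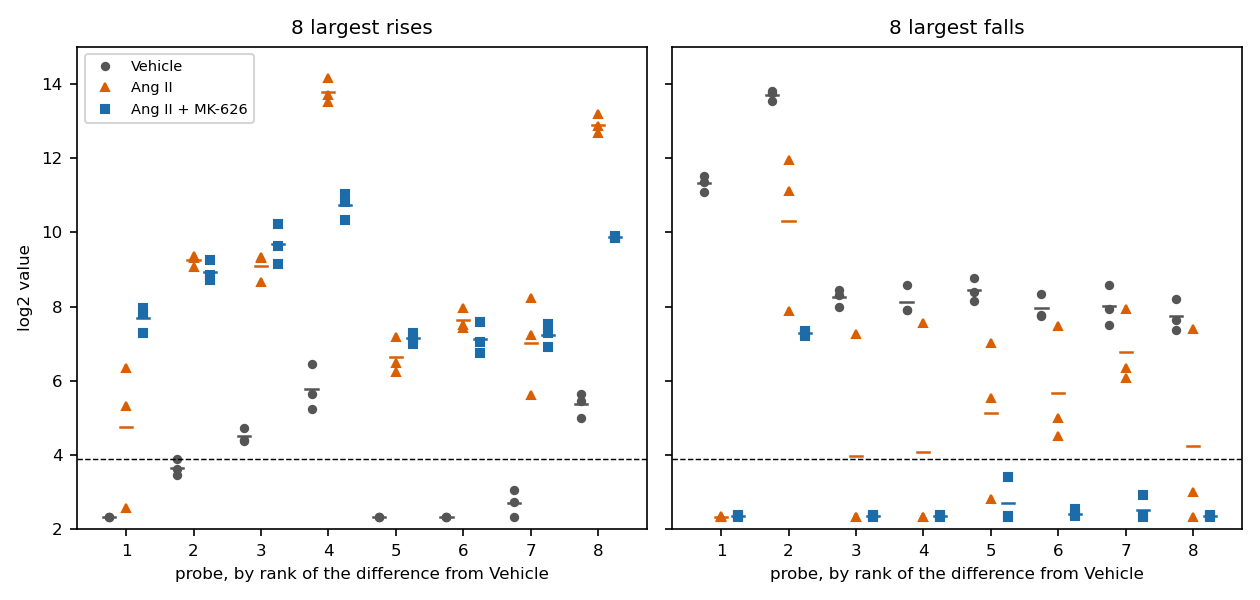
Log2 value on each array for the 8 probes with the largest rise and the 8 with the largest fall against Vehicle, in order of that difference as fitted, without the boundary. Points are single arrays, short lines are means of 3 arrays, and the dashed line is the background boundary of 3.9. At 7 of the 8 falls the Ang II + MK-626 arrays lie at background, where the floor fixes how close they are.

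Very abundant RNAs were among the called probes too. Brightness was ranked here among the probes called after adjustment, by the Ang II + MK-626 mean for rises and by the Vehicle mean for falls. The brightest rise had 12.84, 12.91 and 12.94 in Vehicle and 16.24, 16.01 and 15.73 with Ang II + MK-626, a difference of 3.10 (SE 0.22, limma adjusted p = 0.000788), and 15.67, 15.26 and 16.10 with Ang II. The brightest called fall was smaller. It went from 15.32, 15.11 and 15.55 in Vehicle to 14.04, 14.06 and 14.07 with Ang II + MK-626 (difference -1.27, SE 0.10, limma adjusted p = 0.0011), with 14.05, 13.98 and 13.98 in Ang II. The next brightest fall by the Vehicle mean had 15.12, 15.03 and 15.28 in Vehicle and 13.95, 14.01 and 14.07 with Ang II + MK-626. There the Ang II arrays were far lower, at 9.61, 9.65 and 9.56.

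Probes that went fully to background were then counted. A probe was taken as lost when it was called lower, had 3.9 or more on all 3 Vehicle arrays and was not well above background on any of the 3 Ang II + MK-626 arrays. This held for 185 probes, of which 151 passed the adjusted threshold. Most of them were dim already in Vehicle, with a median Vehicle mean of 4.72 and only 35 probes at 6 or more, so that against the boundary a loss of at least 2-fold was measurable for 73 probes and of at least 4-fold for 37. On 42 of the 185, all 3 treated arrays were at their lowest value. With Ang II alone, 75 of the lost probes were below the boundary on all 3 arrays, 21 were at or above it on all 3, and 89 were mixed.

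The mixed probes were not spread evenly over the Ang II arrays. Of the 185 lost probes, Ang II replicate 1 still measured 85, whereas replicate 2 measured 42 and replicate 3 measured 44. In 51 cases replicate 1 was the only Ang II array above the boundary, against 8 for replicate 2 and 11 for replicate 3. The Ang II arrays enter the definition of a lost probe only through the error of the fit. Without Ang II replicate 1 in that fit there were 187 lost probes, a count that does not test the uneven placement.

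For the 21 probes that all Ang II arrays still measured, the median difference from Vehicle was -0.94 with Ang II + MK-626 when values below the boundary were set to it, and -0.27 with Ang II, and 20 of the 21 passed the adjusted threshold against Vehicle. These values describe the 21 probes and test nothing, since the probes were selected for a call and background with MK-626 and for measured Ang II arrays. The brightest of them had 7.50, 7.94 and 8.59 in Vehicle, 7.94, 6.08 and 6.34 with Ang II and 2.33, 2.34 and 2.91 with Ang II + MK-626. It was at least 17.3-fold lower than in Vehicle (limma, adjusted p = 0.00199 on the values as given and 0.00813 with values below the boundary set to it). The next had 7.76, 7.75 and 8.35 in Vehicle, 7.47, 4.52 and 4.99 with Ang II and 2.54, 2.34 and 2.37 with Ang II + MK-626. This second probe was at least 16.6-fold lower than in Vehicle (limma, adjusted p = 0.00508 on the values as given and 0.0228 with values below the boundary set to it). In both, every Ang II + MK-626 array was below every array of the other groups.

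The reverse pattern was counted in the same way. A probe was taken as induced when it was called higher, was below 3.9 on all 3 Vehicle arrays and was well above background on all 3 Ang II + MK-626 arrays. This gave 186 probes, 144 of them past the adjusted threshold, with a median treated mean of 4.73 and a highest treated mean of 7.68. Against the boundary a gain of at least 2-fold was measurable for 69 of them and of at least 4-fold for 14. On 29 of the 186, all Vehicle arrays were at their lowest value. With Ang II alone, 109 of the 186 were at or above the boundary on all 3 arrays, 15 were below it on all 3, and 62 were mixed. Here Ang II replicate 1 measured 127 probes, replicate 2 measured 151 and replicate 3 measured 152.

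At 4 of the 5 brightest induced probes, the arrays with and without MK-626 overlapped, which is near the share over all probes, where they did not overlap at 26%. The exception was ASMM10P041204. One of the 4 had 2.33 in all 3 Vehicle arrays, 6.49, 7.17 and 6.23 with Ang II and 7.30, 7.16 and 6.99 with Ang II + MK-626. This probe was at least 9.50-fold above Vehicle (limma, adjusted p = 0.000187 on the values as given and 0.00158 with values below the boundary set to it). Another, also at 2.33 throughout Vehicle, had 7.43, 7.97 and 7.49 with Ang II and 7.59, 7.05 and 6.76 with Ang II + MK-626. That one was at least 9.43-fold above Vehicle (limma, adjusted p = 0.000192 on the values as given and 0.00162 with values below the boundary set to it). The other two had 7.23, 8.22 and 5.62 with Ang II and 6.91, 7.28 and 7.53 with Ang II + MK-626, and 5.32, 7.30 and 6.71 with Ang II and 7.70, 7.11 and 6.64 with Ang II + MK-626. Among the 15 probes that were at background with Ang II alone, the brightest had 3.35, 3.58 and 2.89 in Vehicle, 3.59, 2.87 and 2.60 with Ang II and 5.37, 5.64 and 5.68 with Ang II + MK-626. It was at least 3.17-fold higher than in Vehicle (limma, adjusted p = 0.00462 on the values as given and 0.000506 with values below the boundary set to it).

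**Figure D3:**
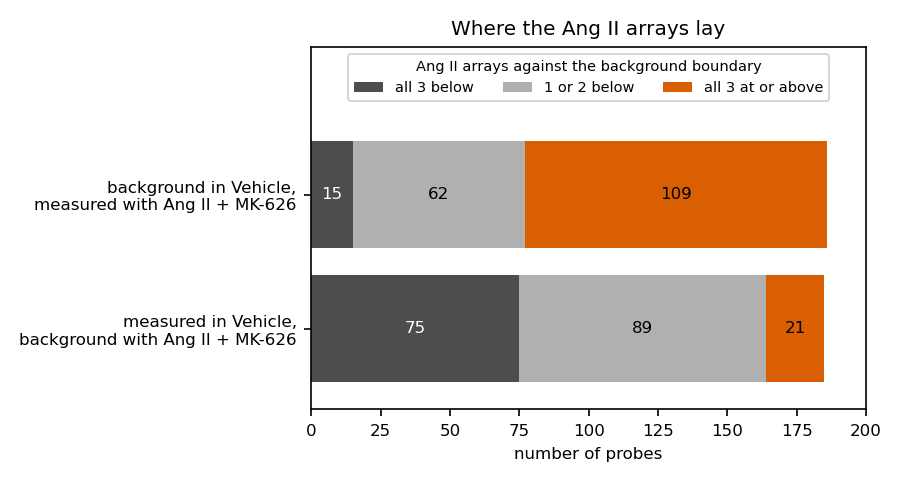
Number of probes that went from measured to background (lower bar) or from background to measured (upper bar) between Vehicle and Ang II + MK-626, split by how many of the 3 Ang II arrays were below the boundary of 3.9. The lost probes split into 75, 89 and 21, and the induced probes into 15, 62 and 109.

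The 1794 probes that were called after adjustment had no overlap between Vehicle and Ang II + MK-626, and their place relative to the Ang II arrays was read array by array. For 1017 of them, 489 higher and 528 lower than Vehicle, the arrays with and without MK-626 overlapped. For 320, 189 higher and 131 lower, all Ang II arrays lay farther from Vehicle than all Ang II + MK-626 arrays. For 457, 173 higher and 284 lower, all Ang II arrays lay on the Vehicle side of all Ang II + MK-626 arrays. Over all 60834 probes, the arrays with and without MK-626 did not overlap at 26%. None of the 1794 had all Ang II arrays beyond Vehicle on the opposite side by more than 1.

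In 178 of the 1794, the 3 Ang II arrays were within the range of the Vehicle arrays widened by 0.5 on each side. The 178 comprised 63 rises and 115 falls. The largest rise of this kind had 4.92, 4.58 and 5.44 in Vehicle, 5.16, 5.36 and 4.93 with Ang II and 8.14, 7.39 and 6.53 with Ang II + MK-626 (difference from Vehicle 2.37, SE 0.41, limma adjusted p = 0.0131). The largest fall had 7.26, 7.83 and 6.31 in Vehicle, 6.32, 6.37 and 6.19 with Ang II and 4.92, 4.94 and 5.33 with Ang II + MK-626 (difference -2.07, SE 0.35, limma adjusted p = 0.0126). The adjusted p of these probes was 0.0533 and 0.0532 without Vehicle replicate 1, and 0.0844 and 0.0856 with the plain equal-variance test. The next fall had 7.30, 7.32 and 7.69 in Vehicle, 7.70, 6.80 and 7.54 with Ang II and 5.46, 5.23 and 5.43 with Ang II + MK-626 (difference -2.06, SE 0.24, limma adjusted p = 0.00355). No array had MK-626 without Ang II, so whether these probes answer to MK-626 alone was not tested. A batch of arrays and the Ang II + MK-626 group cannot be told apart at these probes either.

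Among the 23 probes with a gene name, 8 belong to mRNAs that the study followed up from these same arrays. None of the 8 was called between Ang II + MK-626 and Vehicle, against 4.03% of all probes, and none had an unadjusted p under 0.05 in limma, against 27.1% of all probes. A count of 0 in 8 is near the first of these shares, and the largest difference of the 8 was -0.46 with equal weights for all arrays and 0.60 with array weights, short of the 2-fold limit of a call. The 0.60 was that of Chrm2, whose difference was -0.15 with equal weights, and neither passed the adjusted threshold. Among the 8, the adjusted p-values ran from 0.276 to 0.849. At an unadjusted p under 0.05 there were 0 with the plain equal-variance test, 1 with limma on the 2 groups alone, 5 with array weights, and 8 with the F test over the 3 groups, which also includes Ang II. With array weights, Itgav, Itga8, Npnt and Tnni3 had an adjusted p under 0.05. Their selection used these arrays, so this count is not independent evidence. 3 of them encode proteins of cell adhesion to the matrix. Itga8, the integrin α8 chain of vascular smooth muscle, had 10.95, 10.85 and 11.09 in Vehicle, 8.74, 8.29 and 9.11 with Ang II and 10.81, 10.62 and 10.28 with Ang II + MK-626. The treated arrays were all below Vehicle, and the difference of -0.39 had a 95% interval from -0.91 to 0.13. Itgav, the integrin αv chain, had 7.37, 7.22 and 7.54 in Vehicle and 7.39, 7.20 and 7.20 with Ang II + MK-626, against 5.60 to 5.86 with Ang II, and its interval was the narrowest of the 8, from -0.37 to 0.15. Npnt, or nephronectin, a matrix ligand of integrin α8β1, had 8.63, 8.38 and 8.87 in Vehicle and 8.75, 8.26 and 8.06 with Ang II + MK-626 (interval -0.81 to 0.27).

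Cacna1c, the pore-forming subunit of the L-type calcium channel of smooth and cardiac muscle, was dim. It had 4.47, 4.56 and 4.50 in Vehicle and 4.15, 4.42 and 4.01 with Ang II + MK-626, where it was well above background on 2 of the 3 arrays. The groups did not overlap, and the difference was -0.31 (interval -0.70 to 0.07, limma adjusted p = 0.276). With Ang II the probe was below the boundary on all 3 arrays, at 2.33 to 2.86.

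Tnni3, the cardiac troponin I that makes contraction of heart muscle sensitive to calcium, was the least settled of the named mRNAs. Its Vehicle arrays had 7.55, 7.70 and 7.67, whereas the Ang II + MK-626 arrays had 6.35, 8.11 and 9.23, a range on both sides of Vehicle. The mean difference of 0.25 had an interval from -1.25 to 1.76, so that a 3.38-fold rise is not outside it. Mylk3, the myosin light chain kinase of heart muscle, was likewise lowest in replicate 1 and highest in replicate 3, with 4.06, 5.08 and 5.63 with Ang II + MK-626 against 5.32, 5.32 and 5.52 in Vehicle (interval -1.48 to 0.56). Chrm2, the muscarinic M2 receptor of heart and smooth muscle, was not well above background on any Ang II + MK-626 array and was at or above the boundary on only 1 Vehicle array. Ang II alone gave 12.56 to 12.90 for Tnni3, 7.69 to 8.81 for Mylk3 and 7.08 to 7.41 for Chrm2. These heart-muscle genes thus differed among the 3 treated arrays. They were the 2 with a named probe out of 9 listed heart-muscle markers, and the part of heart tissue in the other differences was not tested. Without Ang II + MK-626 replicate 1, Tnni3 was called higher.

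Il6, the cytokine interleukin 6, had 4.77, 5.25 and 5.07 in Vehicle and 4.83, 4.59 and 4.58 with Ang II + MK-626. The groups overlapped, and the difference of -0.36 had an interval from -1.63 to 0.91. With Ang II alone the arrays were higher and spread from 6.16 to 8.49, which widens the common estimate of the error.

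The other 15 named probes carry RefSeq accessions, and several of their genes, such as Gapdh and Actb, are commonly used as references. None of the 15 was called at a 2-fold change, beside 4.03% of all probes, and 8 had an unadjusted p under 0.05 in limma, beside 27.1%. With no limit on the fold, 6 had an adjusted p under 0.05, all of them higher with Ang II + MK-626, beside 12.9% of all probes tested in both directions and 5.72% in the higher direction. Among the 3700 probes with a mean of 12 or more, the share in both directions was 19.8%. Over the 15, the median difference was 0.21, against 0.02 over all probes, and the groups did not overlap at 11 of them, 9 higher and 2 lower, beside 34.1% of all probes in both directions and 16.4% in the higher direction.

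Hsp90ab1, the constitutive cytosolic HSP90 chaperone, came closest to a 2-fold change. It had 13.63, 13.64 and 13.62 in Vehicle and 14.49, 14.50 and 14.60 with Ang II + MK-626. The difference of 0.90 (SE 0.05, limma adjusted p = 0.000415) is many times the spread within either group, and the Ang II arrays lay in between, at 14.11 to 14.26. G6pd2, an intronless copy of the gene for glucose-6-phosphate dehydrogenase, had 7.96, 8.03 and 7.89 in Vehicle and 8.39, 8.50 and 8.64 with Ang II + MK-626 (difference 0.55, limma adjusted p = 0.00508). Whether its probe also reads the X-linked parent gene was not checked. Rpl13a, a protein of the large ribosomal subunit, had 11.99 ± 0.02 (SD, n = 3) in Vehicle, 12.44, 12.41 and 12.39 with Ang II + MK-626 and 12.62 to 12.77 with Ang II (difference from Vehicle 0.42 with MK-626, limma adjusted p = 0.00345).

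Gapdh, the glycolytic enzyme that the study used as reference for qRT-PCR, had 15.74, 15.86 and 15.56 in Vehicle and 16.10, 16.12 and 16.17 with Ang II + MK-626. The difference was 0.41, a 1.33-fold rise (SE 0.08, limma adjusted p = 0.0202). A pair of array control probes for Gapdh, which were not part of the test, was higher too, by 0.50 and 0.71, without overlap between the groups. The control probes for Pgk1, another glycolytic enzyme, were higher by 0.69 and 0.62, also without overlap. The distance between the Gapdh control probes, whose names end in _3 and _5, was 1.78 ± 0.08 (SD, n = 3) in Vehicle and 1.57 ± 0.05 (SD, n = 3) with Ang II + MK-626, whereas the Ang II arrays, which place the differences, stood apart at 2.20, 2.26 and 1.96. The Gapdh probe ending in _5 had a mean of 12.94 with Ang II and 12.99 in Vehicle. The distance between the Pgk1 control probes was 7.66 ± 0.02 (SD, n = 3) in Vehicle and 7.73 ± 0.08 (SD, n = 3) with Ang II + MK-626. The part of RNA quality in these rises and in the place of the Ang II arrays was not tested. Gapdh has many processed copies in the genome, whose share in these probes is unknown. Tbp, the TATA-binding protein, was higher by 0.42 (limma adjusted p = 0.0373) and Gusb, the lysosomal β-glucuronidase, by 0.29 (limma adjusted p = 0.0387). In all 6 genes the rise kept its direction with every array left out in turn and with cyclic loess, but only Hsp90ab1, G6pd2 and Rpl13a passed the adjusted threshold in each of these settings. The highest adjusted p with an array left out was 0.0683 for Gapdh and 0.124 for Gusb, both without Vehicle replicate 1, and Tbp had 0.120 in that same setting.

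The remaining genes of the 15 did not pass the adjusted threshold in the fit over all groups. Actb, the cytoskeletal β-actin, had 14.16, 14.16 and 14.20 in Vehicle and 13.81, 13.83 and 13.91 with Ang II + MK-626, without overlap. Its difference of -0.32 had an interval from -0.71 to 0.06 in the fit over all groups, where the Ang II arrays were spread from 12.07 to 12.80. In limma on the 2 groups alone Actb passed, with an adjusted p of 0.0117, and so did Gk with 0.0406, and Actb had 0.0223 in the plain equal-variance test. Hprt, an enzyme of purine salvage, had the narrowest interval of the 15, with 14.13, 14.12 and 14.18 in Vehicle and 14.09, 14.06 and 13.99 with Ang II + MK-626. That interval was -0.20 to 0.01. Ppia, the cyclophilin A, and B2m, the light chain of MHC class I, overlapped between the groups, with differences of 0.12 and 0.17. Nono, Gk and Tuba1b did not overlap and had differences of 0.19, 0.26 and 0.21, with limma adjusted p-values of 0.112, 0.0839 and 0.194. Tfrc and Ldhal6b overlapped.

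**Figure D4:**
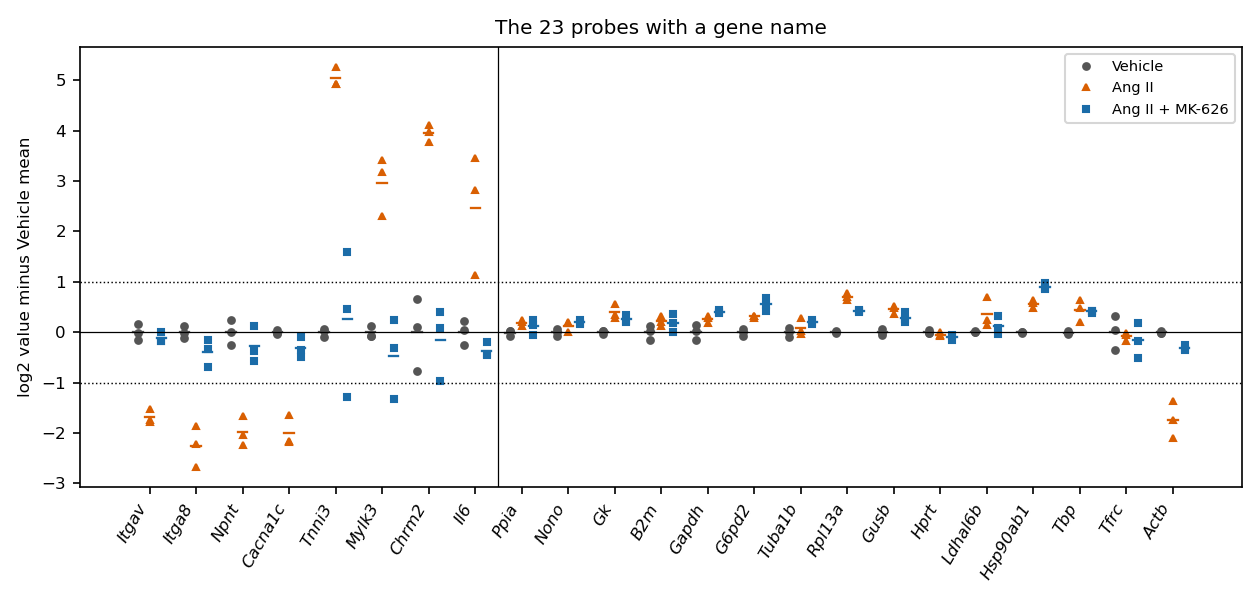
Log2 value minus the Vehicle mean for the 23 probes with a gene name, with the 8 mRNAs of the study to the left of the vertical line and the 15 genes named by RefSeq accession to its right. Points are single arrays, short lines are means of 3 arrays, and dotted lines mark a 2-fold change. Ang II + MK-626 means lie within the dotted lines for all 23 genes, and the Tnni3 arrays of that group are spread over more than 2 units.

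Probes with lincRNA in their name, which stands for long intergenic noncoding RNA, could be told apart from the rest. Of 1836 such probes 33 were called, 8 higher and 25 lower, which is 1.80% against 4.03% of all probes. Fewer of them were above background, 27.6% against 65.0% of all probes, and among those above it 3.75% were called against 4.77%. After adjustment 18 remained, 3 higher and 15 lower. The brightest of the 33 was a probe named for a human lincRNA and the minus strand. It had 13.64, 13.78 and 13.67 in Vehicle, 8.88, 8.89 and 8.77 with Ang II and 12.29, 11.96 and 12.06 with Ang II + MK-626. The remaining difference from Vehicle was -1.59 (SE 0.09, limma adjusted p = 0.000398), with no overlap between any of the groups. At another of these lincRNA probes, the arrays with and without MK-626 overlapped. It had 9.32, 9.43 and 9.25 in Vehicle, 7.54, 7.71 and 6.66 with Ang II and 7.56, 7.36 and 6.53 with Ang II + MK-626 (difference from Vehicle -2.18, limma adjusted p = 0.00995).

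For 32 of the 33 called lincRNA probes, a probe of the same name for the opposite strand was on the array. None of these 32 partners was called and 4 had an unadjusted p under 0.05 in limma, beside 4.03% and 27.1% of all probes, so that the count of 0 is near the share over all probes. Of the 32 partners, 12 had a mean at or above the background boundary. The partner of the brightest called probe had a mean of 6.89 in Vehicle, 6.39 with Ang II and 6.33 with Ang II + MK-626. The 15 probes named as negative controls had no value above 3.45 on any array. None was called or had an unadjusted p under 0.05 in limma, beside 4.03% and 27.1% of all probes. So close to the floor a 2-fold difference had little room, so the absence of calls tests nothing.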

How the data were processed

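RNA of 9 aorta samples, with 1 array for each, was measured in 3 groups of 3. The authors read the spot intensity from the scans with Agilent Feature Extraction, made the array distributions equal with the quantile step of GeneSpring GX, and deposited log2 values for 60902 probes. The deposited scanner intensity and background flags of the Ang II + MK-626 arrays were used to find the background boundary and to decide which probes were measured there. Its rank correlation with the log2 values was 0.992 to 0.995. Quantile normalization gives all arrays 1 distribution, so differences are relative to the other probes.

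The fit used limma 3.58.1 (R 4.3.3) on all 9 arrays, with a mean for each group, and set Ang II + MK-626 against Vehicle. Python 3.11.15, pandas 2.3.3 and matplotlib 3.10.9 served for tables and plots. The fit was tested on simulated data. The boundary of 3.9 is where, going up in steps of 0.1, the share of probes well above background reached 50%, averaged over 3 arrays (3.7, 4.0 and 4.0). For "at least" folds, each array of the dim group was set to 3.9 or its own value, whichever was higher. The labels do not say how many animals gave each sample, so p-values measure the spread between these arrays, part of which may be technical. With 3 arrays against 3, an exact permutation test cannot go below p = 0.1. The number of arrays limits the precision.

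Members and gene lists were chosen with earlier results of these data known. The rule for named probes took the 8 candidate mRNAs (matched to probes by the signal of each array in a study table), the 8 largest changes in each direction with adjusted p under 0.05 and no overlap, the 5 brightest lost and induced probes, and the 3 largest in each direction with Ang II inside the Vehicle range. Of the unnamed probes, 4 are given by identifier and others by their values. The RefSeq-accession, brightest, lincRNA and control probes were chosen after their values were seen. Probes with RefSeq accessions were named from RefSeq gene tables (15 of 15). The 18 planned marker and pathway lists were not tested, since at most 2 members of any list had a named probe. The study's methods name one-way ANOVA, which was run as an alternative, with limma on the pair of groups, a plain equal-variance test, a mean-variance trend, cyclic loess, filters at the boundary, a block for the replicate number, weights for arrays, a lower fold threshold and leaving out each array.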

Additional observations from a re-analysis of the deposited data

How the results depend on the processing

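The 2452 calls became 3761 with array weights, which gave Ang II + MK-626 replicate 2 a weight of 129.4 against 0.1771 for replicate 3, so that this count rests on single arrays, and 7220 with a fold threshold of 1.5. Leaving out 1 array at a time, the calls ran from 2155 to 2993, the lost probes from 184 to 272, the induced probes from 186 to 260 and the candidate mRNAs called from 0 to 1, which was Tnni3. All other settings kept the number of calls within 1.5 times of that reported, from 1684 calls with values below the boundary set to it up to 2468 with a mean-variance trend, and cyclic loess gave 1368 higher and 1065 lower. Apart from left-out arrays, lost and induced probes were counted again only with adjustment, cyclic loess, the replicate block and a stricter boundary. There they also stayed within 1.5 times. The replicate numbers do not pair the arrays, since deviations of equal numbers correlated at -0.034, 0.007 and -0.116. With the replicate number as a block there were 2381 calls, 182 lost and 180 induced probes, and 1341 calls after adjustment. Adjusted calls were 1114 with the plain equal-variance test and 1058 to 1815 with an array left out. At no named probe past the adjusted threshold did a setting turn the direction. The gene lists, including 1 probe per gene, were not run because 23 probes had names. Dim probes limit the folds of lost and induced RNAs, and scanner files of the Vehicle and Ang II arrays were not analysed here.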
